A study of Sus scrofa with 24 samples.

Results

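Cell cycle and DNA replication genes were followed in cultured fat cell precursors of the pig. The list named 56 genes by symbol, 28 that act in DNA synthesis (S phase), 5 that control the entry into it (G1/S control) and 23 that act in mitosis. Of these, 49 had a row, matched by gene symbol to a pig Ensembl ID, in the deposited table of 25462 genes: 24 S phase, 5 G1/S control and 20 mitotic genes. No row was matched for PCNA, RRM2, GINS2, FEN1, MKI67, AURKA or CCNA2, so their levels were not analysed here. All 49 genes were tested, and each was above 0 in all 24 libraries.

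The cells were primary preadipocytes of Yorkshire piglets 6 days old, obtained by collagenase digestion either of fat under the skin of the back (BF) or of longissimus dorsi muscle tissue, which gave the intramuscular cells (IMF). After reaching near confluence they received an adipogenic medium of 3-isobutyl-1-methylxanthine, dexamethasone and insulin for 2 days, then insulin alone for 2 days, and then growth medium. PolyA RNA was sequenced on days 0, 2, 4 and 8, with 3 replicates for each depot and day, which gave the 8 groups BF-0d to BF-8d and IMF-0d to IMF-8d. All groups shared the breed and the age, both depots went through the same media, and the day 0 groups had not yet been induced. Day and medium changed together and cannot be told apart. The muscle tissue was digested for longer and with more concentrated collagenase than the fat, so depot and digestion cannot be told apart either. The cells came from 3 piglets, and the labels do not tie replicate numbers to animals, so p-values measure the spread between these cultures. Levels are given as FPKM, a count of sequenced fragments scaled to the length of the transcript and to the size of the library. The question behind the design was which genes differ between the depots and over the days of differentiation.

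Before a cell copies its DNA, the MCM proteins are loaded on replication origins with the help of CDC6 and CDT1, and then open the double helix together with CDC45 and the GINS complex. DNA polymerases, primase and the RFC clamp loader follow behind the opened helix. Entry into S phase depends on the D and E type cyclins and on the E2F factors, which switch on many replication genes, whereas mitosis is driven by CDK1 with the B type cyclins and ends when CDC20 activates the anaphase promoting complex. Mouse preadipocyte lines are known for a round of division shortly after induction, called mitotic clonal expansion, and mature adipocytes have left the cell cycle.

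The promoters of the genes were read from the pig genome Sscrofa11.1 at the gene starts of its RefSeq annotation, from 250 bases before to 50 bases after each start, for all 56 genes and for 20638 protein-coding genes in all. Each was searched on both strands for letters of the E2F site (TTTGGCGC, TTTCCCGC, TTTCGCGC or TTTGGCGG), of the cell cycle homology region CHR (TTTGAA or TTCGAA), which is known from promoters of mitotic genes, and of the CCAAT box (CCAAT). The E2F letters were in 28.6% of the 28 S phase promoters, in 17.4% of the 23 mitotic promoters, in none of the 5 G1/S control promoters and in 3.36% of all promoters. CHR letters were in 60.9% of the mitotic, 10.7% of the S phase and 16.1% of all promoters. The CCAAT letters were in 78.3% of the mitotic, 53.6% of the S phase and 35.7% of all promoters. These shares are a description of exact matches with no test, and a match does not show binding. The 120 bases before the gene start are printed for 2 S phase genes with E2F letters and 3 mitotic genes of the results, 5′ to 3′ along the gene, with the matched letters of either strand in capitals. The windows are chr15:15923518-15923637 (plus strand, MCM6), chr14:22798026-22798145 (plus, POLE), chr14:64233825-64233944 (plus, CDK1), chr6:167890588-167890707 (minus, CDC20) and chr16:47338119-47338238 (plus, CCNB1).
MCM6: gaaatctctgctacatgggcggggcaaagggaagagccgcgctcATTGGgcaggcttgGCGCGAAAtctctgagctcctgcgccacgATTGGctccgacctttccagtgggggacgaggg
POLE: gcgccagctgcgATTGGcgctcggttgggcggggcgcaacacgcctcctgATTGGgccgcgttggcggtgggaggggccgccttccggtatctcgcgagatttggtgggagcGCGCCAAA
CDK1: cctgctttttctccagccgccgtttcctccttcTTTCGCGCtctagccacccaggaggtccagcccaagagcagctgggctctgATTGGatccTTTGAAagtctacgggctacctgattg
CDC20: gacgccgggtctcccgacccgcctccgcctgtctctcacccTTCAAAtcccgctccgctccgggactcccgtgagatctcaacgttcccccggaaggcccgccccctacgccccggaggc
CCNB1: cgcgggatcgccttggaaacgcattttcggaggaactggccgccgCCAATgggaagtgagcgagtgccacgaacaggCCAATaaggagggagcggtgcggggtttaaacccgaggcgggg
MCM6 and POLE showed E2F letters (GCGCGAAA and GCGCCAAA, the reverse complements) beside 2 CCAAT boxes each in these windows. CDK1 held E2F letters, a CCAAT box and CHR letters within the same window, CDC20 held CHR letters alone, and CCNB1 held 2 CCAAT boxes.

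Summed FPKM lay between 307967 and 385768 per library, and 9985 to 10858 genes reached 1 FPKM. Read depth is not given by FPKM. Some libraries stood apart from the other replicates of their groups. BF-2d replicate 3 lay at -17.20 on the first principal component of all genes, against 26.53 and 27.23 for its partners, and BF-4d replicate 3 lay at 65.08, against 43.07 and 51.04. BF-4d replicate 3 was the lowest of its group for 43 of the 49 genes, with all 20 mitotic genes among them, against 38.6% of all 16135 genes tested. BF-2d replicate 3 was the highest of its group for 34 of the 49, with 20 of the 24 S phase genes among them, against 42.4% of all genes tested. Further libraries were also at one end of their group for many of the 49: BF-4d replicate 1 was the highest for 37, against 33.2% of all genes, IMF-0d replicate 1 for 34 (29.7%) and IMF-2d replicate 3 for 32 (35%), while BF-2d replicate 2 was the lowest for 35 (48.2%), IMF-2d replicate 2 for 32 (36.9%) and IMF-0d replicate 3 for 31 (43.7%). The labels call the cells adipocytes, and of the 15 adipocyte markers in the table ADIPOQ and PLIN1 reached at most 0.23 and 0.0773 FPKM in any library, while LPL (lipoprotein lipase) reached 611, FASN 101, SCD 71.7, CEBPA 10 and PPARG 5.75 FPKM. Fibroblast and stromal markers summed to between 6883 and 21423 FPKM. Most of this sum was COL1A1, COL1A2, COL3A1 and VIM, and single stromal markers did not all move with it. The 8 endothelial markers in the table summed to 25.3 to 25.9, 12.8 to 18, 11.4 to 17.6 and 12.5 to 16.6 FPKM in BF on days 0, 2, 4 and 8 and to 25 to 32, 22 to 27.2, 19.2 to 20.4 and 16.3 to 25.1 in IMF, most of it ERG, EGFL7 and PECAM1, while the endothelial cadherin gene CDH5 reached at most 0.0884 FPKM. The depots did not overlap in this sum on days 2 and 4. Its part in the results was not tested.

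In the IMF cells the cell cycle genes stood at their highest before induction, and in the BF cells at their lowest on day 8. The highest of the 8 group means was that of IMF-0d for 46 of the 49 genes, against 17.5% of all genes tested, and the lowest was that of BF-8d for 44 of the 49, against 27.4%. The median over the 24 S phase genes was 3.28 ± 0.0906 FPKM in BF-0d (SD over 3 libraries), 4.34 ± 1.1 in BF-2d, 2.67 ± 1.19 in BF-4d and 1.06 ± 0.17 in BF-8d. In the IMF cells it was 8.25 ± 0.378, 6.26 ± 0.588, 6.56 ± 0.459 and 3.84 ± 0.271 on the same days. The median over the mitotic genes was 2.18 ± 0.0698 FPKM in BF-0d, 2.72 ± 0.675 in BF-2d, 2.18 ± 1.24 in BF-4d and 0.622 ± 0.00832 in BF-8d, against 8.91 ± 1.93, 6.14 ± 0.218, 6.07 ± 0.248 and 2.66 ± 0.0327 in IMF. The median of BF-4d replicate 3 over the mitotic genes was 0.753 FPKM, near the 0.617 to 0.632 of the BF-8d libraries, while replicates 1 and 2 were at 2.96 and 2.84. Since these are bulk libraries, fewer dividing cells and less RNA per dividing cell cannot be told apart.

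**Figure D1:**
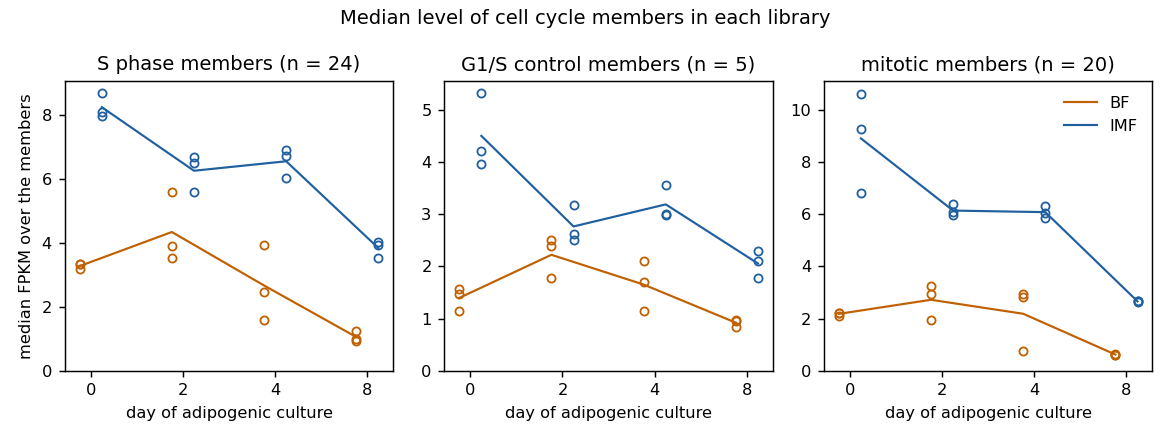
Median FPKM over the S phase, G1/S control and mitotic genes (y axes, each from 0) in each library by day of adipogenic culture (x axis, days evenly spaced), for BF in orange and IMF in blue. Circles are libraries and lines join the means of 3 replicates; the IMF-0d libraries lie highest in each panel, and the low BF-4d circle of the mitotic panel is replicate 3 at 0.753 FPKM.

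**Figure D2:**
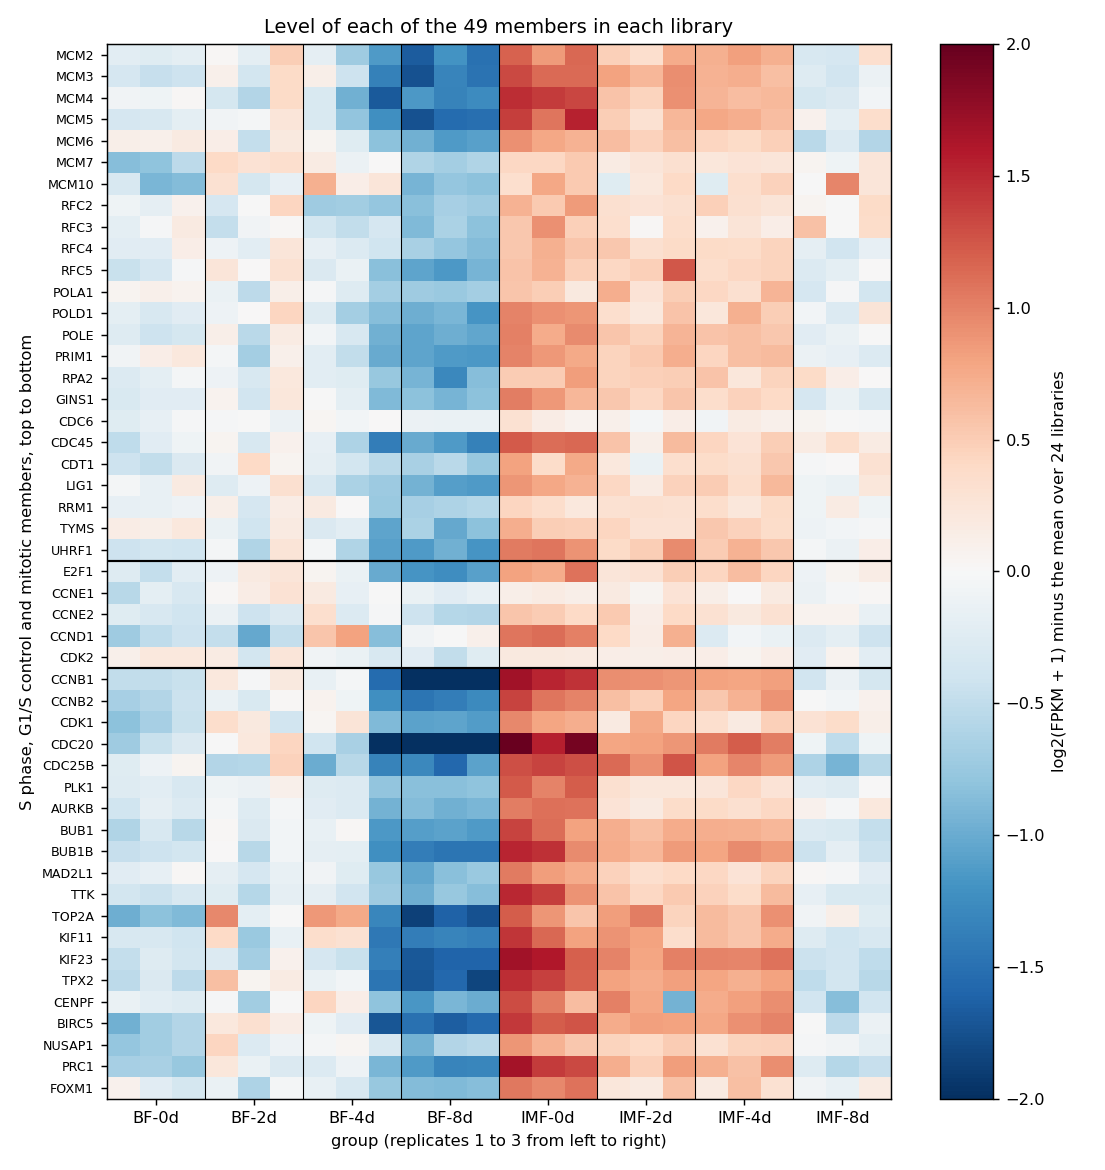
Level of each of the 49 genes (rows, in the order S phase, G1/S control, mitotic) in each of the 24 libraries (columns), as log2(FPKM + 1) minus the gene's mean over all libraries, in red above and in blue below that mean, with the colours ending at 2 and -2. The IMF-0d columns are red over most rows, and the BF-8d columns with BF-4d replicate 3 are blue.

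The depots were compared on each day, with the question of which genes set IMF apart from BF. Differences are in log2(FPKM + 1), on which scale the changes of genes below about 1 FPKM are understated, and a gene was called at an adjusted p under 0.01 and an absolute difference of at least 1 by limma over all 16135 genes tested. On day 0, before induction, 33 of the 49 genes were called higher in IMF and none lower, against 1.87% of all genes called higher: 12 of 24 S phase, 2 of 5 G1/S control and 19 of 20 mitotic genes. The median difference was 0.95 for the S phase and 1.61 for the mitotic genes, against 0.02 for all genes tested. In 48 of the 49 every IMF-0d library was above every BF-0d library, which held for 23.5% of all genes, and CDK2 was the exception. As FPKM, the IMF mean was a median of 4.3 times the BF mean over the mitotic genes (2.15 to 8.32 times) and 2.54 times over the S phase genes (1.34 to 3.93 times).

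CDC20, the activator of the anaphase promoting complex, had 32.1, 23.9 and 30.7 FPKM in the IMF-0d libraries and 4.15, 5.18 and 5.93 in BF-0d, a difference of 2.30 (SE 0.27, adjusted p = 3.78e-06). PRC1, which bundles microtubules of the central spindle, had 8.68, 7.11 and 6.62 FPKM against 0.925, 0.958 and 0.812, and differed by 2.15 (SE 0.17, adjusted p = 3.61e-08). The groups did not overlap for either gene. BIRC5 (survivin), of the chromosomal passenger complex, differed by 2.04 and CCNB1, cyclin B1, by 2.03, with CCNB1 at 20.2 to 24.1 FPKM in IMF and 4.55 to 4.74 in BF. CCNB2 differed by 1.69, TOP2A, the topoisomerase that untangles sister chromatids, by 1.78, CDK1 by 1.47, PLK1, a mitotic kinase, by 1.40, and FOXM1, a transcription factor of mitotic genes, by 1.20. The gene for PLK1 overlaps ERN2 on the opposite strand, and the strand of the libraries is not given in the sources used here. The mitotic gene not called was CENPF, a kinetochore protein (1.18, adjusted p = 0.0349).

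Among the S phase genes, MCM5 of the MCM helicase had 15.2, 12.1 and 17.2 FPKM in IMF-0d and 3.96, 3.98 and 4.42 in BF-0d, a difference of 1.62 (SE 0.18, adjusted p = 2.82e-06). MCM3 differed by 1.60 and MCM4 by 1.45, and MCM2 by 1.27, with 11.8, 9.24 and 11.6 FPKM against 3.92, 3.79 and 3.94. Of the 5 MCM helicase genes called of 6, the fifth was MCM7 (1.18), which overlaps AP4M1 on the opposite strand, and MCM6 was the gene not called. Of the origin licensing and firing genes 4 of 5 were called (MCM10, CDC45, GINS1 and CDT1), with CDC45 at 1.44. The fifth, CDC6, was low throughout, with 0.563, 0.402 and 0.326 FPKM in IMF-0d and 0.0725, 0.126 and 0.249 in BF-0d (0.32, adjusted p = 0.00671). None of the 4 RFC clamp loader genes and neither gene of nucleotide supply, RRM1 and TYMS, was called. UHRF1, which directs the maintenance of DNA methylation and overlaps ARRDC5 on the opposite strand, differed by 1.39.

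In leave-one-out fits the day 0 count stayed between 29 and 32. The calls of TOP2A and KIF11, a spindle motor, were each lost in 5 of 6 such fits, with adjusted p up to 0.0213 and 0.0272, and those of MCM10, MAD2L1 and CDT1 in 3, 3 and 2. Other cell type markers moved with the depot on this day. DES (desmin), an intermediate filament gene of muscle cells, had 29.6 to 45.3 FPKM in IMF-0d and 4.5 to 4.88 in BF-0d, and gave nearly all of the summed level of the 12 myogenic markers (29.7 to 45.4 against 4.59 to 4.91 FPKM), of which 3 were at 0 in all 24 libraries. The muscle-defining MYOD1 was at 0 in all 24 libraries and the satellite cell gene PAX7 reached at most 0.00683 FPKM. The stromal markers summed to 20311 to 21423 FPKM in IMF-0d and 16915 to 18521 in BF-0d. Single members went both ways. VIM, COL3A1, ENG and NT5E were higher in every IMF-0d library than in every BF-0d library. COL1A2, DCN, LUM, PDGFRB and DPP4 were lower, and COL1A1, PDGFRA and CD34 overlapped. The adipocyte markers went both ways: PPARG had 0.147 to 0.425 FPKM in IMF-0d and 2.57 to 3.33 in BF-0d, FABP4 was at 0 in IMF-0d and at 1.75 to 2.41 in BF-0d, SCD had 60.6 to 67.2 and 36.8 to 39.4, and the list summed to 144 to 151 and 118 to 120 FPKM. The part of these markers in the difference was not tested.

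On day 2 few of the genes differed at the chosen thresholds. Of the 49 genes 3 were called higher in IMF and none lower, against 2.71% of all genes called higher: CDC25B (1.34, SE 0.22, adjusted p = 0.000253), the phosphatase that activates CDK1, KIF23 (1.21), a motor of cytokinesis, and CCND1, cyclin D1 (1.08). No S phase gene was called by limma, while 15 of the 24 had every IMF library above every BF library, as had 15 of the 20 mitotic genes, against 23.2% of all genes. CDC25B had 17.4, 14.9 and 19.2 FPKM in IMF-2d and 4.59, 4.69 and 10.5 in BF-2d, with the high BF value in replicate 3. Without BF-2d replicate 3, 5 genes were called, and with only the groups compared in the fit none was. CCND1 lost its call in 4 of 6 leave-one-out fits (BF-2d replicates 1 and 2 and IMF-2d replicates 1 and 3), with an adjusted p up to 0.0489. DES had 3.03 to 4.56 FPKM in IMF-2d and 0.109 to 3.22 in BF-2d, LPL 1.86 to 3.62 and 6.71 to 82.1, and the stromal markers summed to 16922 to 19221 and 9622 to 17498. The other adipocyte markers went both ways and summed to 129 to 140 FPKM in IMF-2d and 174 to 200 in BF-2d. SCD had 48.1 to 53.4 and 34.3 to 40.3, and FASN 44.1 to 49 and 81.8 to 101. Their part in the difference was not tested.

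On day 4 21 genes were called higher in IMF and none lower, against 6.6% of all genes called higher: 11 S phase and 10 mitotic genes, and no G1/S control gene. Every IMF library was above every BF library in 42 of the 49, against 33.6% of all genes. CDC20 had 16.4, 18.6 and 16.2 FPKM in IMF-4d and 5.42, 4.38 and 1.06 in BF-4d (2.12, SE 0.27, adjusted p = 3.2e-06). CDC25B differed by 1.84, KIF23 by 1.74 and BIRC5 by 1.57, and of the S phase genes MCM4 differed by 1.63, MCM5 by 1.48, MCM2 by 1.42 and MCM3 by 1.22. Without BF-4d replicate 3, the low library, 9 genes were called, and among the genes that lost the call were CCNB1 (0.90), CCNB2 (0.73) and MCM3 (0.82). The count without BF-4d replicate 1 was 25. CD14, listed here as an immune marker, was at 17.1 FPKM in 1 BF-4d library, where the 9 immune markers, 2 of them at 0 in every library, summed to 3.15 to 18.9 FPKM, while the leukocyte gene PTPRC reached at most 0.00835 FPKM in any library. DES had 10 to 13.2 FPKM in IMF-4d and at most 0.0548 in BF-4d, and the stromal markers summed to 16949 to 17193 in IMF-4d and 6883 to 9545 in BF-4d. LPL had 4.69 to 6.44 FPKM in IMF-4d and 176 to 313 in BF-4d, while the other adipocyte markers summed to 159 to 168 and 121 to 166 FPKM. The part of these markers in the difference was not tested. TOP2A was not called (0.59, adjusted p = 0.23): its BF-4d libraries held 15.9, 14.7 and 2.76 FPKM and the IMF-4d libraries 13.4, 12.7 and 16.4.

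On day 8 21 genes were again called higher in IMF and none lower, against 4.31% of all genes called higher: 10 S phase genes, E2F1 and 10 mitotic genes. In 47 of the 49 every IMF library was above every BF library, against 30.8% of all genes, with CCND1 and CDK2 as the exceptions. CDC20 had 6.98, 4.93 and 6.93 FPKM in IMF-8d and 0.703, 1.02 and 0.762 in BF-8d (1.98, SE 0.27, adjusted p = 1.13e-05). CCNB1 had 4.999, 6.17 and 5.14 against 0.845, 0.94 and 0.868 (1.77), TOP2A differed by 1.67, and CCNB2 by 1.38. MCM5 had 5.62, 4.45 and 6.99 FPKM against 0.861, 1.16 and 1.19 (1.68, SE 0.18, adjusted p = 9.82e-07), and CDC45 differed by 1.39, MCM2 by 1.34 and MCM3 by 1.26. FOXM1 was not called on this scale, with 0.879, 0.764 and 1.19 FPKM in IMF-8d and 0.0723, 0.071 and 0.0876 in BF-8d, a ratio of the means of 12.3. As FPKM, the IMF mean was a median of 4.12 times the BF mean over the mitotic genes (1.6 to 12.3 times) and 2.92 times over the S phase genes (1.56 to 6.16 times). With a pseudocount of 0.1 in place of 1, which gives such low genes more weight, 34 genes were called on day 8. DES had 1.27 to 2.22 FPKM in IMF-8d and 0.0301 to 0.0885 in BF-8d, and the stromal markers summed to 11312 to 12694 and 8737 to 9382 FPKM. LPL had 93.7 to 141 FPKM in IMF-8d and 276 to 611 in BF-8d, while the other adipocyte markers summed to 83.8 to 101 and 81.8 to 107 FPKM. Their part in the difference was not tested.

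**Figure D3:**
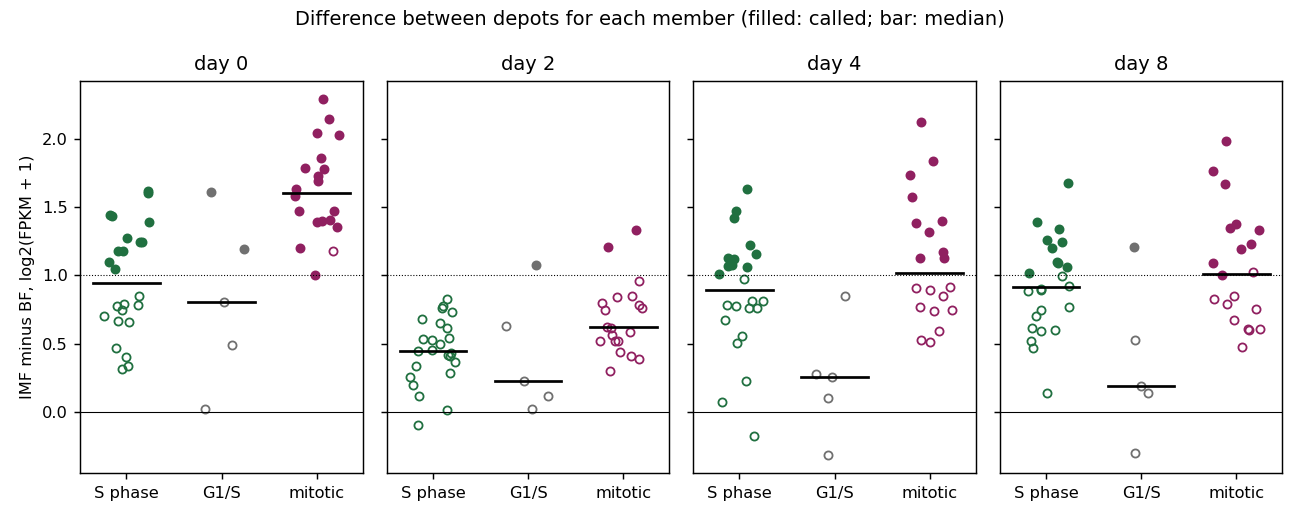
Difference between the depots, IMF minus BF in log2(FPKM + 1) (y axis), for each of the 49 genes by phase (x axis) on days 0, 2, 4 and 8 (panels, with a shared y axis). Filled points are called, open points are not, black bars are medians and the dotted line is at 1; the mitotic median is 1.61, 0.62, 1.02 and 1.01 on days 0, 2, 4 and 8, and with a pseudocount of 0.1 it is 2.01, 0.77, 1.57 and 1.79.

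The genes called higher in IMF on days 0, 4 and 8 alike numbered 13 of the 49, against 0.533% of all genes. They were the S phase genes MCM2, MCM3, MCM4, MCM5, CDC45 and UHRF1 and the mitotic genes CCNB1, CCNB2, CDC20, KIF23, TPX2, a spindle assembly factor, BUB1B, a kinase-like protein of the spindle checkpoint, and BIRC5. Each day has its own libraries. MCM3, CDC45, UHRF1, CCNB1, CCNB2 and TPX2 lost the day 4 call without BF-4d replicate 3, and MCM4 lost the day 8 call in 3 of 6 leave-one-out fits. The IMF-8d means were still above the BF-0d means for 17 of the 24 S phase and 16 of the 20 mitotic genes, against 47.5% of all genes.

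Within the BF depot the first 2 days brought few calls. From day 0 to day 2, 1 of the 49 genes was called higher and none lower, against 2.71% of all genes called higher: MCM7, which went from 10.7 to 13.7 FPKM in the BF-0d libraries to 26.9, 24.8 and 25.7 in BF-2d (1.07, SE 0.10, adjusted p = 3.61e-07). The overlap of MCM7 with AP4M1 applies here too. TOP2A went from 3.72, 4.26 and 4.02 FPKM to 17.1, 7.1 and 8.27, which did not pass the test (1.15, adjusted p = 0.028), with no overlap between the groups. The median change was 0.16 for the S phase and 0.30 for the mitotic genes, against -0.04 for all genes, and at an unadjusted p under 0.05 by limma 15 of the 49 were higher, against 16.8% of all genes, and none was lower, against 24.4%.

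From day 2 to day 4 in BF, CDC20 alone was called lower (-1.23, SE 0.27, adjusted p = 0.00279), against 1.34% of all genes called lower. It went from 7.38, 8.76 and 10.3 FPKM to 5.42, 4.38 and 1.06, and the call was lost without BF-2d replicate 3 or BF-4d replicate 3 (adjusted p up to 0.015). Without BF-4d replicate 1, 6 genes were called, and without BF-4d replicate 2, 3 genes. At an unadjusted p under 0.05 by limma, 23 of the 49 were lower and 2 higher in this interval, against 16.7% and 19.8% of all genes. From day 4 to day 8, 5 of the 49 were called lower and none higher, against 1.14% of all genes called lower: TOP2A (-1.84), CCNB1 (-1.48), CDC20 (-1.19) and TPX2 (-1.15) of the mitotic genes, and MCM10 (-1.20), which helps to start the replication fork. This count turned on the BF-4d libraries. Without BF-4d replicate 3, 17 genes were called lower, without BF-4d replicate 1, 1 gene, and without BF-4d replicate 2 or without BF-8d replicate 3, 2 genes each, and with only the compared groups in the fit none was called. The CCNB1 libraries were at 6.04, 6.59 and 1.69 FPKM on day 4 and at 0.845, 0.94 and 0.868 on day 8, so that the groups did not overlap. From day 4 to day 8, 39 of the 49 were lower and none higher at an unadjusted p under 0.05 by limma, against 19.7% and 12.5% of all genes. Over days 0, 2, 4 and 8 in BF, DES was at 4.5 to 4.88, 0.109 to 3.22, at most 0.0548 and 0.0301 to 0.0885 FPKM, LPL at 1.58 to 2.76, 6.71 to 82.1, 176 to 313 and 276 to 611, and the stromal sum at 16915 to 18521, 9622 to 17498, 6883 to 9545 and 8737 to 9382. The other adipocyte markers summed to 116 to 118, 174 to 200, 121 to 166 and 81.8 to 107 FPKM on these days. Their part in the changes was not tested.

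Over the whole course from day 0 to day 8 in BF, 13 of the 49 genes fell and none rose, against 7.39% of all genes called lower: 7 S phase and 6 mitotic genes. MCM5 (-1.31, SE 0.18, adjusted p = 7.01e-06), MCM2 (-1.23), MCM4 (-1.20), MCM6 (-1.19) and MCM3 (-1.11) fell with PRIM1, the catalytic subunit of primase (-1.20), and LIG1, the ligase that joins Okazaki fragments (-1.06). MCM2 went from 3.92, 3.79 and 3.94 FPKM to 0.796, 1.48 and 1.02. The mitotic genes that fell were CDC20 (-1.73), CCNB1 (-1.58), KIF23 (-1.27), TPX2 (-1.25), CDC25B (-1.21) and BUB1B (-1.02). Leaving out 1 library gave 11 to 14 genes; BUB1B lost its call without BF-0d replicate 3 or BF-8d replicate 3, LIG1 without BF-0d replicate 3 and MCM3 without BF-8d replicate 1. With the pseudocount of 0.1 the count was 32. The 15 adipocyte markers summed to 118 to 120 FPKM on day 0 and 358 to 717 on day 8 in BF, and LPL alone, with 1.58 to 2.76 and 276 to 611 FPKM, gave that difference. Without LPL the sum was 116 to 118 FPKM on day 0 and 81.8 to 107 on day 8, and every BF-8d library was below every BF-0d library for 5 of the 15 (FASN, ACACA, PPARG, LIPE and PLIN1) and above for LPL alone. The stromal markers summed to 16915 to 18521 FPKM on day 0 and 8737 to 9382 on day 8. Single members went both ways. COL1A1 went from 5341 to 6050 FPKM to 776 to 917, and COL1A2, DCN, ENG, DPP4 and CD34 were also lower in every BF-8d library. PDGFRA, PDGFRB, COL3A1, LUM and NT5E were higher in every BF-8d library, and VIM overlapped. The part of these markers in the changes was not tested.

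In the IMF depot genes of the list were called from day 4 to day 8 and over the whole course, and not in the earlier intervals. From day 0 to day 2 none of the 49 was called by limma, against 0.787% of all genes called in either direction, although 23 of the 49 (9 S phase, 2 G1/S control and 12 mitotic genes) were lower at an unadjusted p under 0.05, against 13.4% of all genes, and none was higher. The median change was -0.55 for the mitotic genes. Over the same days DES went from 29.6 to 45.3 FPKM to 3.03 to 4.56 and the summed stromal markers from 20311 to 21423 to 16922 to 19221, and their part was not tested. With a pseudocount of 0.1, 1 gene was called lower. CCNB1 went from 24.1, 21.6 and 20.2 FPKM to 13.9, 13.8 and 13.4, without overlap. From day 2 to day 4 none of the 49 was called, against 0.0372% of all genes in either direction, and the median change was -0.00 for the S phase and 0.03 for the mitotic genes; at an unadjusted p under 0.05, 1 gene, CCND1, was lower, against 2.09% of all genes. No alternative fit called any of them in this interval.

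From day 4 to day 8 in IMF, 10 of the 49 fell and none rose, against 3.08% of all genes called lower, and all 10 were mitotic. CDC25B fell most on this scale (-1.58, SE 0.22, adjusted p = 1.91e-05), from 13.6, 15.6 and 14.2 FPKM to 4.5, 3.42 and 4.71. KIF23 (-1.46), CENPF (-1.37) and CDC20 (-1.32) followed, with TPX2, BUB1B, PRC1, BIRC5, CCNB1 and BUB1, a checkpoint kinase, between -1.25 and -1.06. The S phase genes had a median change of -0.53 with none called by limma at the chosen thresholds. At an unadjusted p under 0.05 by limma, 16 of the 24 S phase and 17 of the 20 mitotic genes were lower, against 27.9% of all genes. None of either list was higher. CENPF lost its call in each of the 6 leave-one-out fits, BIRC5 in 3 and BUB1 without IMF-8d replicate 3, and the count lay between 8 and 9. Median ratio scaling gave 6 genes. Over the same days DES went from 10 to 13.2 FPKM to 1.27 to 2.22, LPL from 4.69 to 6.44 to 93.7 to 141, and the summed stromal markers from 16949 to 17193 to 11312 to 12694. The other adipocyte markers went the other way as a sum, from 159 to 168 FPKM to 83.8 to 101. The part of these markers in the change was not tested.

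From day 0 to day 8 in IMF, 25 of the 49 fell and none rose, against 4.49% of all genes called lower: 9 S phase genes, CCND1 and 15 mitotic genes. The median change was -0.81 for the S phase and -1.48 for the mitotic genes. CDC20 (-2.04, SE 0.27, adjusted p = 5.67e-06), CDC25B (-2.01), KIF23 (-1.94) and PRC1 (-1.89) were among the mitotic genes, with CCNB1 at -1.84, PLK1 at -1.29, CCNB2 at -1.13 and FOXM1 at -1.06. Of the S phase genes MCM4 (-1.63, SE 0.24, adjusted p = 2.6e-05), MCM3 (-1.45), MCM6 (-1.26), MCM5 (-1.25) and MCM2 (-1.17) fell with GINS1, PRIM1, POLE, the catalytic subunit of the leading strand polymerase, and UHRF1. MCM4 went from 22.4, 21.1 and 20.1 FPKM to 5.6, 5.87 and 7.06, and no IMF-8d library reached the IMF-0d range. In leave-one-out fits the count was 22 to 27; UHRF1 lost its call in 4 of 6 fits, POLE and CENPF in 2 each, KIF11 without IMF-0d replicate 1 and FOXM1 without IMF-8d replicate 2. Of the genes that fell, 12 were called in both depots, against 2.79% of all genes, and LIG1 was called in BF and not in IMF. DES also fell in IMF, from 29.6 to 45.3 FPKM on day 0 to 1.27 to 2.22 on day 8, and the stromal markers summed to 20311 to 21423 and 11312 to 12694 FPKM. LPL went from 0.822 to 1.18 FPKM to 93.7 to 141, while the other adipocyte markers summed to 142 to 150 and 83.8 to 101 FPKM. Every IMF-8d library was above every IMF-0d library for 4 of the 15 adipocyte markers (PNPLA2, CIDEC, FABP4 and LPL). It was below for 4 (LIPE, FASN, SCD and ACACA). The part of these markers in the change was not tested.

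Whether the depots changed differently was tested as the interaction, the IMF change minus the BF change. From day 0 to day 2 the interaction was called negative for 6 genes and positive for none, against 1.21% of all genes called negative. They were MCM7 (-1.27, SE 0.15, adjusted p = 5.12e-05), MCM5 (-1.17) and CDT1, the licensing factor (-1.04), of the S phase genes, and CDC20 (-1.68), PRC1 (-1.41) and PLK1 (-1.10, SE 0.17, adjusted p = 0.000626) of the mitotic genes. PLK1 went from 4.41, 3.63 and 4.37 FPKM to 1.9, 1.73 and 1.72 in IMF and from 0.953, 1.02 and 0.87 to 1.2, 1.14 and 1.48 in BF. The ranges shifted down in IMF and up in BF without overlap. MCM7, PRC1 and PLK1 kept the call in all 12 leave-one-out fits, while CDC20 lost it in 9, MCM5 in 8 and CDT1 in 6, and the count moved between 3 (without BF-0d replicate 1, IMF-0d replicate 1, IMF-0d replicate 3 or IMF-2d replicate 2) and 9 (without BF-2d replicate 3). From day 2 to day 4 no interaction was called by limma, against 3.06% of all genes in either direction, with 15 of the 49 positive and 1 negative at an unadjusted p under 0.05, against 15.4% and 13.2% of all genes; 3 were called without BF-4d replicate 1, 2 without BF-4d replicate 3 and 1 without BF-2d replicate 1. From day 4 to day 8, MCM10 (1.42, adjusted p = 0.00797) and CDC25B (-1.23, adjusted p = 0.00936) were called, against 6.39% of all genes in either direction, and lost the call in 8 and 10 of 12 leave-one-out fits. The count ended at 0 or 1 in 10 of these 12 fits, and was 2 without BF-4d replicate 2 and 3 without BF-4d replicate 3.

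Over the whole course the interaction was called negative for 3 of the 49 genes, against 2.13% of all genes called negative: CCND1 (-1.91, SE 0.38, adjusted p = 0.00167), PRC1 (-1.32, SE 0.25, adjusted p = 0.000908) and TTK (-1.03, SE 0.21, adjusted p = 0.00171), a kinase of the spindle checkpoint. TTK had 5.09, 4.56 and 3.01 FPKM in IMF-0d and 0.914, 0.739 and 0.728 in IMF-8d, and in BF 0.669, 0.591 and 0.715 against 0.0888, 0.268 and 0.187. As a ratio of means the depots differed 6.41 times on day 0 and 4.38 times on day 8. TTK lost the call in 4 of 12 leave-one-out fits (without BF-0d replicate 2, BF-8d replicate 2, IMF-0d replicate 1 or IMF-0d replicate 2). All 20 mitotic genes had an interaction below 0 on this scale, with a median of -0.60, against 0.01 for all genes. This depended on the pseudocount: with 0.1 in place of 1, the interaction was below 0 for 14 and above 0 for 6 of the 20, with a median of -0.17, and 1 of the 49 genes was called. As FPKM, the median ratio of the depot means over the mitotic genes was 4.3 on day 0 and 4.12 on day 8, and it was larger on day 8 for 9 of the 20, CDC20 (5.68 and 7.59) and CCNB1 (4.76 and 6.15) among them. The S phase genes had a median interaction of -0.02 with a pseudocount of 1, while their median ratio of the depot means as FPKM was 2.54 on day 0 and 2.92 on day 8 and was larger on day 8 for 18 of the 24.

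**Figure D4:**
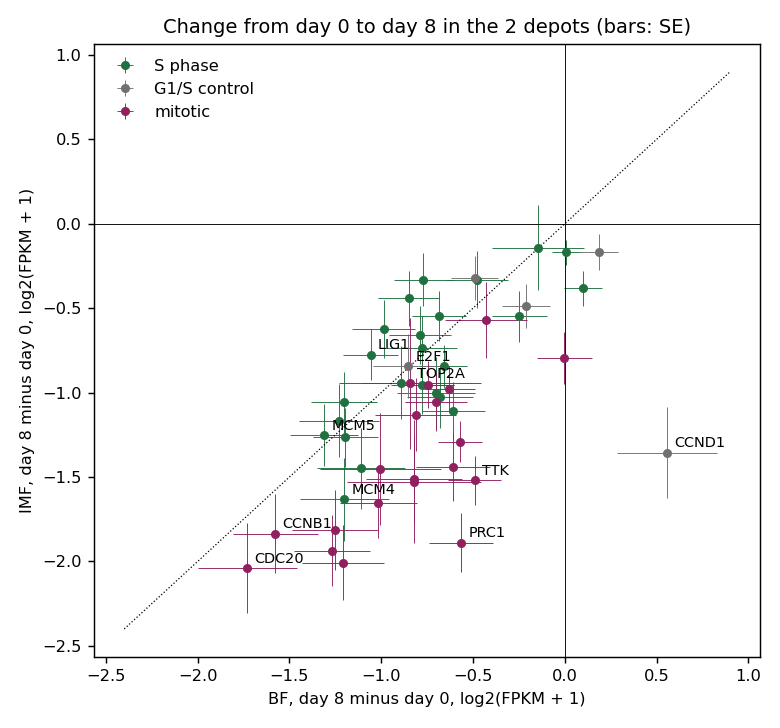
Change from day 0 to day 8 in log2(FPKM + 1) in BF (x axis) and IMF (y axis) for each of the 49 genes, with standard errors as bars and the dotted line where both are equal. Mitotic genes lie below the line, S phase genes lie on both sides of it, and CCND1 lies farthest from it, at 0.56 in BF and -1.35 in IMF.

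The G1/S control genes did not move together. CCND1, cyclin D1, which links growth signals to the cell cycle, had 62.0, 64.2 and 59.2 FPKM in IMF-0d and 17.4, 20.1 and 21.5 in BF-0d (1.61, SE 0.27, adjusted p = 0.000292), then 24, 25.2 and 21.5 in IMF-8d and 27.5, 29.0 and 31.4 in BF-8d (-0.30, adjusted p = 0.417). The BF-4d libraries were at 43.3, 51.3 and 15.6 FPKM, with replicate 3 low. E2F1, a transcription factor of S phase genes, had 4.21, 3.97 and 5.33 FPKM in IMF-0d and 1.48, 1.14 and 1.57 in BF-0d (1.19, adjusted p = 0.00014), and 1.78, 2.1 and 2.29 against 0.32, 0.254 and 0.398 on day 8 (1.21, adjusted p = 5.75e-05). Its ratio of means was 3.22 on day 0 and 6.36 on day 8. CCNE1 and CCNE2, the E cyclins that activate CDK2, stayed below 2 FPKM. CCNE2, which overlaps INTS8 on the opposite strand, had 1.96, 1.87 and 1.67 FPKM in IMF-0d and 0.709, 0.627 and 0.537 in BF-0d (0.80, adjusted p = 0.000206), under the size threshold. CDK2 was high and varied little, from 27.3 to 45.9 FPKM over all libraries, with a day 0 difference of 0.02 (SE 0.13, adjusted p = 0.97).

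**Figure D5:**
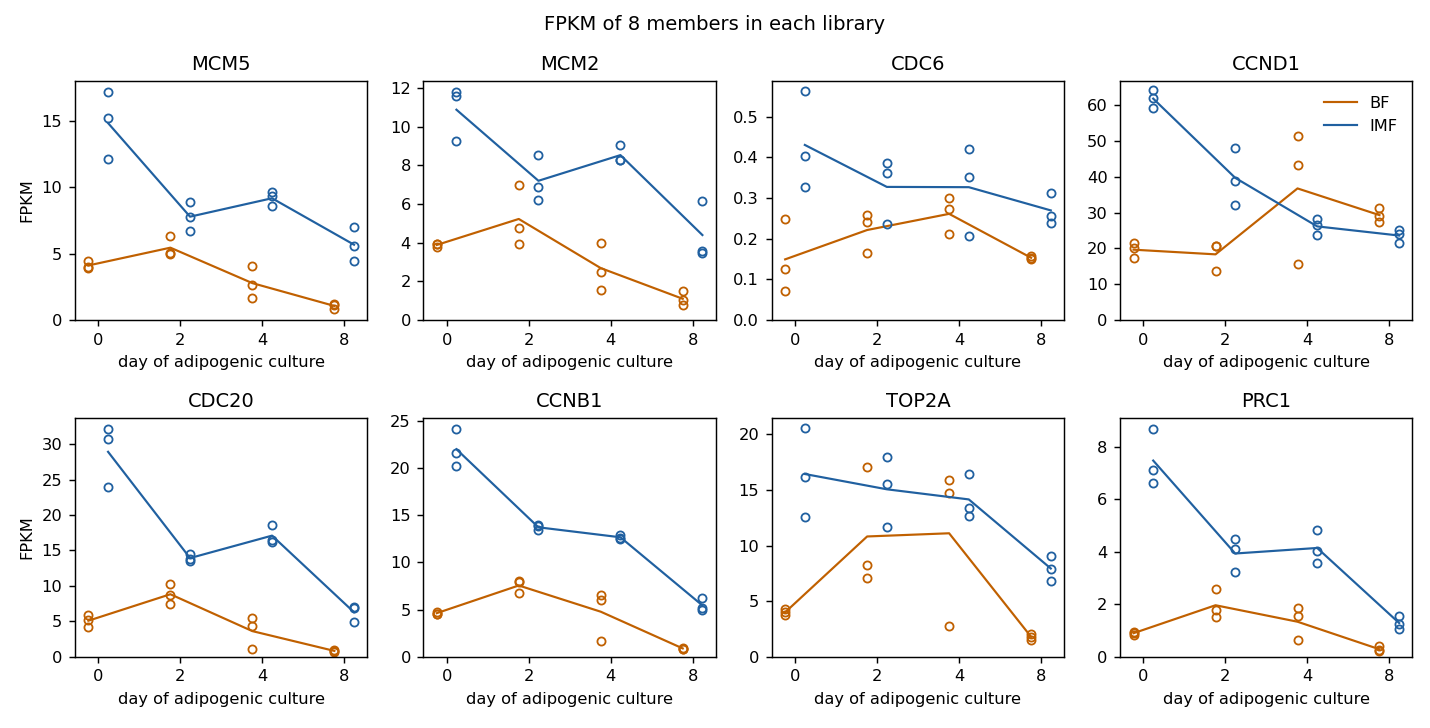
FPKM (y axes, each from 0) of MCM5, MCM2, CDC6, CCND1, CDC20, CCNB1, TOP2A and PRC1 in each library by day of adipogenic culture (x axis, days evenly spaced), for BF in orange and IMF in blue; circles are libraries and lines join the means of 3 replicates. CCND1 is the panel in which the depots cross, and TOP2A in BF-4d shows replicate 3 at 2.76 FPKM below the other 2 libraries.

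In all, 9 of the 49 genes were called in no comparison: CDC6, POLA1, RFC4, RFC5, RRM1 and TYMS of the S phase genes and CCNE1, CCNE2 and CDK2. As FPKM, the IMF mean on day 0 was 2.88 times the BF mean for CDC6 and 2.93 times for CCNE2, both low genes. It was 1.01 to 1.96 times for the rest. RRM1, the large subunit of ribonucleotide reductase, and TYMS, which makes the thymidine nucleotide, were among the more abundant S phase genes, with TYMS at 38.5, 32.7 and 32.4 FPKM in IMF-0d and 14.4, 10.8 and 12.6 in BF-8d. RFC5 held 1 outlying value, 14.7 FPKM in IMF-2d replicate 3 against 7.84 and 8.29, and CENPF in the same library held 0.485 FPKM against 4.79 and 3.89.

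Other genes of the pathway were counted from lists of known members. Of 65 other mitotic genes tested, 40 were called higher in IMF on day 0, 6 on day 2, 27 on day 4 and 18 on day 8, with 1 called lower, on day 2 (UBE2S, -1.18, against 2.02% of all genes called lower), and 36 fell in IMF and 12 in BF from day 0 to day 8. UBE2C, the ubiquitin-conjugating enzyme of the anaphase promoting complex, differed by 2.29 on day 0, and ECT2, an activator of the cytokinetic ring, fell by 2.33 in BF and by 2.24 in IMF. Of 51 other replication genes 6 were higher in IMF on day 0, 0 on day 2 by limma, 9 on day 4 and 4 on day 8, and 8 fell in IMF and 5 in BF, with 1 called higher in BF, from day 0 to day 8. Of all genes 1.87%, 2.71%, 6.6% and 4.31% were called higher in IMF on these days, and 4.49% were called lower in IMF and 7.39% in BF over the course. On day 2, 26 of the 51 were higher at an unadjusted p under 0.05, against 25.1% of all genes. TK1, thymidine kinase, differed by 1.89 on day 0, and POLE4, a small subunit of polymerase epsilon, fell by 1.82 in BF and by 1.56 in IMF. Of 31 other G1/S control genes 3 were called higher in IMF before induction, 4 on day 4 and 2 on day 8. Called lower were CCNG2, an atypical cyclin, on day 4 (-1.07) and CDK6, a partner of the D cyclins, on day 8 (-2.09), against 4.72% and 2.65% of all genes called lower on these days. None was called by limma on day 2, with 6 higher and 5 lower at an unadjusted p under 0.05, against 25.1% and 12.9% of all genes. MYBL2, a transcription factor of late cell cycle genes, differed by 1.91 on day 0.

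The inhibitors of cyclin-dependent kinases split. CDKN2B (p15) had a mean of 4.57 ± 0.541 FPKM in BF-0d and 27.5 ± 7.36 in BF-8d (2.32, SE 0.24, adjusted p = 1.19e-07), and 4.17 ± 1.06 in IMF-0d and 6.68 ± 0.635 in IMF-8d, an interaction of -1.73 (adjusted p = 0.00117). CDKN1A (p21) rose in BF as well (1.13, adjusted p = 7.22e-06), from 180.3 ± 10.04 to 398 ± 66.2 FPKM. CDKN2C (p18) fell in BF (-1.53, adjusted p = 5.81e-07), from 3.63 ± 0.369 to 0.597 ± 0.0884 FPKM. CDKN3, a phosphatase of CDK2, fell in IMF by 1.22 (adjusted p = 5.61e-06). Of the 8 inhibitors tested, 2 rose and 1 fell in BF from day 0 to day 8, against 6.28% and 7.39% of all genes, and 1 fell in IMF, against 4.49%. CDKN1C was called higher in BF from day 0 to day 2 (1.66) and lower from day 2 to day 4 (-1.48). Of the 8, 2 were called higher in IMF than in BF on day 0, 3 on day 4 and 2 on day 8. CDKN2C was among them each time, and the shares of all genes were 1.87%, 6.6% and 4.31%. CDKN1C on day 2 and CDKN2B on days 4 and 8 were called lower, against 2.02%, 4.72% and 2.65%.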

How the data were processed

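Gene-level FPKM values of 24 mRNA libraries were taken from the deposited table. Per the study's methods and the submitters' processing notes, the authors mapped paired reads to Sscrofa11.1 with HISAT2, assembled transcripts and computed the deposited FPKM with StringTie 1.3.4d, and used DESeq2 1.6.3 for their own comparisons, which were not used here. Gene symbols were matched to 14815 of 21271 Ensembl IDs, and 4191 rows assembled by the authors were not named. Genes whose FPKM summed to more than 1 over the 24 libraries were tested (16135) with limma 3.58.1 in R 4.3.3 on log2(FPKM + 1), with 1 mean per group over all libraries, a trended and robust variance prior and Benjamini-Hochberg adjustment over all genes tested in each of 16 comparisons. Calls needed an adjusted p under 0.01 and an absolute difference of at least 1. The fit was tested on simulated data. FPKM hold no read counts, so depth and counting error are unknown, and comparisons that use the same group share its libraries.

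The genes and lists were chosen with earlier results of these data known, so no p is given over a list. Named with values were a set of 16 genes (PCNA, RRM2 and MKI67 had no matched row) and, in each list and comparison, up to 4 called genes of the largest change. For other lists up to 2 called genes per comparison could be named. CDKN1A, DES, CD14 and single adipocyte and endothelial marker values and the RFC5 and CENPF values of 1 library outside these rules were chosen after they were seen. Alternatives were another pseudocount, filters, scalings, fits and omitted libraries.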

Additional observations from a re-analysis of the deposited data

Results flagged for a closer look

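The change over time differed between the depots, by the limma interaction test on log2(FPKM + 1), for 10 of the genes in 11 tests, which is why they are listed. From day 0 to day 2 the interaction, IMF change minus BF change, was -1.27 for MCM7, -1.17 for MCM5, -1.04 for CDT1, -1.68 for CDC20, -1.41 for PRC1 and -1.10 for PLK1. From day 4 to day 8 it was 1.42 for MCM10 and -1.23 for CDC25B. From day 0 to day 8 it was -1.91 for CCND1, -1.32 for PRC1 and -1.03 for TTK. Of all genes 1.21% were called negative over the first interval, 6.39% in either direction from day 4 to day 8 and 2.13% negative from day 0 to day 8. In 12 leave-one-out fits each, CDC25B lost the call in 10, CDC20 in 9, MCM5 and MCM10 in 8, CDT1 in 6 and TTK in 4, while MCM7, PLK1, CCND1 and PRC1 (in both tests) lost it in 0.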

How the results depend on the processing

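Counts of the 49 genes called are given for the settings that moved them by more than 1.5 times. With a pseudocount of 0.1 in place of 1, BF gave 3 over days 0 to 2 (1 with 1), 2 over days 2 to 4 (1), 18 over days 4 to 8 (5) and 32 over days 0 to 8 (13), IMF gave 1 over days 0 to 2 (0), the depots 6 on day 2 (3) and 34 on day 8 (21), and the interaction 1 over days 4 to 8 (2) and 1 over days 0 to 8 (3). Without the filter on low genes the interaction over days 4 to 8 gave 0. Median ratio scaling gave 2 in BF over days 0 to 2 and 6 in IMF over days 4 to 8 (10), and quantile normalization gave 2 in BF over days 0 to 2 and 13 between the depots on day 4 (21). A fit of only the groups compared gave 0 in BF over days 2 to 4, 0 over days 4 to 8, 0 between the depots on day 2, 12 on day 4 and 1 for the interaction over days 4 to 8. The cause of these moves was not tested. No named difference changed sign where it was called.

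Leaving out 1 library gave 0 to 6 in BF over days 2 to 4, 1 to 17 over days 4 to 8, 2 to 5 between the depots on day 2 and 9 to 25 on day 4, and for the interaction 3 to 9 over days 0 to 2, 0 to 3 over days 2 to 4 and 0 to 3 over days 4 to 8. With the replicate block the interaction over days 4 to 8 gave 0, and no other count moved by over 1.5 times. No pairing of the samples by replicate number was seen. Over 84 pairs of libraries with the same number, the correlation of deviations from the group means ran from -0.454 to 0.457 with a median of 0.001. Of the 24 libraries, 10 correlated best with their own number. With 3 libraries in each group, some of them apart from the others, this cannot exclude that the numbers denote animals.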
